A study of Mus musculus with 10 samples.

Results

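Hair germ and follicle keratinocytes were followed in 10 droplet single-cell RNA libraries of embryonic mouse back skin. A cell was counted as a member when it carried basal keratin RNA (5 or more unique molecular identifiers, UMIs, of Krt5 and Krt14 together), little suprabasal keratin (under 10 UMIs of Krt1 and Krt10), little collagen (under 30 UMIs of Col1a1 and Col3a1), and at least 1 UMI from 2 or more of the follicle genes Shh, Lhx2, Sox9, Edar and Wnt10b. Cells were kept when they had more than 1000 but fewer than 6000 detected genes and a mitochondrial share below 10%. Of 55482 kept cells, 11283 passed the keratin and collagen limits (gated keratinocytes), and 3675 of these were members. The 7608 gated keratinocytes with fewer than 2 of the 5 genes served as the comparison population within each library.

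The study asked what loss of MOF, the acetyltransferase of histone H4 lysine 16 encoded by Kat8, and loss of the mitochondrial complex III subunit encoded by Uqcrq (called QPC) do to embryonic skin. E15.5 (E for embryonic day) was sampled with 2 control libraries (numbered 2 and 3) and 2 of genotype MOFfl/fl/K14Cre (MOF cKO, numbered 5 and 6, here cKO5 and cKO6). E16.5 was sampled with 2 libraries of each of these genotypes, and E17.5 with a single control and a single library of genotype QPCfl/fl/K14Cre (QPC cKO). Deletion was driven by Krt14-Cre, which acts in skin epithelium and not in the dermis, controls were wild-type or heterozygous littermates, and all mice were on a mixed C57Bl/6J and CD-1 background. The study's own staining described cKO6 as mosaic for the histone mark, so that library mixes cells with and without it. Each stage used a different 10x chemistry, so stage and chemistry cannot be told apart, and differences between stages are given as values without a test. No source used here ties the libraries to separate litters, so p-values measure the spread between these libraries.

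Hair follicles begin when epidermal Wnt signalling and the tumour necrosis factor family ligand Eda, acting through its receptor Edar, set up placodes, clusters of cells that express Wnt10b, Dkk4 and Shh. Shh secreted by the placode acts through its receptor Ptch1 and the Gli transcription factors on the dermal condensate and on the epithelium itself, and drives downgrowth into a hair germ. Sox9 marks the suprabasal cells of the placode and later the outer root sheath and stem cells, while Lhx2 is a transcription factor of the placode and of follicle stem cells. The 5 genes that define the cells therefore cover a ligand (Shh), a receptor (Edar), a Wnt ligand (Wnt10b) and a pair of transcription factors (Lhx2 and Sox9). In the mouse genome (GRCm38, GENCODE gene bodies) they lie on chromosome 5 from 28456815 to 28467256 (Shh, minus strand), chromosome 2 from 38339281 to 38369733 (Lhx2, plus), chromosome 11 from 112782224 to 112787760 (Sox9, plus), chromosome 10 from 58600789 to 58675654 (Edar, minus) and chromosome 15 from 98770712 to 98778150 (Wnt10b, minus).

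The libraries held 13609345 to 203392303 UMIs and 716 to 10653 kept cells. Median UMIs per member at E15.5 were 16020 and 18400 in control and 20450 and 20860 in MOF cKO. At E16.5 the medians were 12550 and 15010 in control and 20810 and 26030 in MOF cKO, and at E17.5 they were 24250 in control and 25530 in QPC cKO. A pair of libraries shared 0 to 36 barcodes of kept cells, and 1 barcode belonged to a member in both of a pair (E15.5 control 3 and cKO6). The E17.5 libraries shared 1702 barcodes, 7 of them of kept cells. At E16.5 the MOF cKO libraries held only 2 and 4 members, so no gene test was run there.

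The label was first checked against genes that the rule did not use. Among genes higher in members in all 5 control libraries, Dkk4, a secreted Wnt inhibitor and Wnt target of the placode, had the highest median ratio. Ptch1 and Gli1, transcriptional readouts of hedgehog signalling, were also higher there in members than in the other gated keratinocytes. Members were chosen by markers from these same cells, so the values are a description with no test. CPM is a gene's UMIs over all UMIs of the summed population, on the usual per-library scale, and 2965 genes had a mean of 50 CPM in either population. Of these, 36 (1.21%) were higher in members in all 5 control libraries with a median log2 ratio of 1 or more. A further 45 (1.52%) were lower in all 5 with a median of -1 or less. Dkk4 was at 67.0 CPM in members and 5.18 in the others in E15.5 control 2, at 78.1 and 3.30 in control 3, at 13.6 and 0.819 in the first E16.5 control (6 UMIs, all in 1 of 32 members), at 97.6 and 8.60 in the second, and at 14.7 and 0 at E17.5. Its median log2 ratio, with a pseudocount of 1 CPM, was 3.46, the highest of the genes considered that were higher in all 5 control libraries.

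Ptch1, the Shh receptor, was at 213.5, 199.8, 244, 160.5 and 351 CPM in members and at 95.6, 79.2, 84.0, 64.8 and 112 in the other gated cells (E15.5 controls 2 and 3, E16.5 controls 1 and 2, E17.5 control). Its median log2 ratio was 1.32, and that of Gli1, a transcription factor induced by the pathway, was 1.61. In cKO5 such markers were close in the populations: Gli1 was at 8.95 CPM in members and 7.35 in the others, Barx2, a homeobox factor, at 8.06 and 11.7, and Ptch1 at 81.0 and 62.3. Dkk4 was at 6.42 CPM in members of cKO5 and 0.574 in the others. Apart from Dkk4, these genes did not set the members of cKO5 apart from the other cells as in control, and the cells of cKO5 are called members by the rule alone. After Dkk4 the order by median log2 ratio was Tgfb2 (2.29), which encodes a growth factor, Cntfr (2.25), a cytokine receptor subunit, Casz1 (2.14), a zinc finger transcription factor, Nrp2 (1.99), a semaphorin receptor, Pthlh (1.91), a parathyroid hormone-like peptide, Lgr6 (1.89), an R-spondin receptor, Alcam (1.88), an adhesion molecule, Pdlim4 (1.86) and Fn1 (1.82), which encodes fibronectin.

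Among keratins, Krt17, a keratin of follicles and of stressed epidermis, was higher in members in all 5 control libraries, with 1325, 1154, 2888, 2084 and 2609 CPM against 533, 442, 762, 673 and 748. Krt15, a basal and follicle stem cell keratin, was at 2222, 2066, 2467, 1764 and 3162 CPM in members and 3673, 3658, 2822, 4012 and 2467 in the others, so it was lower in members in 4 of 5 libraries. Cdh3 (P-cadherin) had a median log2 ratio of 0.57 and was higher in 5 of 5, while Lef1, a Wnt effector, had 0.13 and was higher in 4 of 5. Among genes lower in members in all 5 control libraries, the lowest median ratio belonged to Ccer2 (-5.08). Genes of macrophages and mast cells followed (F13a1, Pf4, C1qb, Coro1a, C1qc, Ccl7, Dab2, C1qa and Mcpt4, from -4.04 for F13a1 to -3.03 for Mcpt4). The immune marker list summed to 1108 and 308 CPM in the other gated cells of the E16.5 controls and 1565 in those of the E17.5 control, against 20.4, 70.0 and 48.5 CPM in members. With gated cells that carried 10 or more UMIs of other lineages left out, F13a1 came to 0.062 and Mcpt4 to 0, while Ccer2 stayed at -5.23.

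Markers of other cell types within the members were low except for those of red cells, fibroblasts and suprabasal cells. At E15.5 the 6 dermal fibroblast markers summed to 1059 to 1146 CPM over the 4 libraries, almost all of it Dcn, and the suprabasal list to 1487 to 1572 CPM. Globin genes summed to 11490 to 17800 CPM at E15.5 and to 4.54 and 3.998 CPM at E17.5. Immune, melanocyte and endothelial marker sums in E15.5 members were at most 63.7, 31.3 and 11.5 CPM, and the Merkel cell keratin Krt20 was at 0 in all 4 libraries. Sums of 4 lists separated MOF cKO from control at E15.5. The immune list was at 63.7 and 35.1 CPM in control and 19.0 and 27.4 in MOF cKO, the Merkel list (Krt8, Krt18 and others) at 21.8 and 23.1 against 11.04 and 10.5, the Schwann cell list at 4.87 and 5.88 against 9.55 and 6.39, and the muscle list at 2.61 and 1.24 against 10.0 and 8.56, and the part of these in the results was not tested.

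In the E15.5 libraries a larger share of control than of MOF cKO members carried a Shh or an Lhx2 UMI. Shh was detected in 26.1% and 23.9% of control members and in 8.78% (cKO5) and 15.46% (cKO6) of MOF cKO members. Lhx2 was detected in 36.6% and 26.2% of control members and in 5.41% and 15.7% of MOF cKO members, so for both genes the groups did not overlap. Thinned to 5000 UMIs per cell, Shh was found in 17.47% and 12.6% against 3.38% and 9.28%, and Lhx2 in 22.6% and 15.01% against 2.37% and 6.96%. Since the rule used these genes, the values are a description.

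The remaining markers divided differently. Wnt10b was detected in 73.5% and 75.2% of control members and in 92.2% and 82.5% of MOF cKO members. Sox9 was detected in 64.8% and 66.5% of control members, 85.5% in cKO5 and 65.0% in cKO6, so only cKO5 stood apart at full depth. Edar was detected in 52.7%, 58.3%, 32.4% and 53.6% in the same order. The members of cKO5 thus qualified mainly by a single pair: 60.1% of them carried Sox9 and Wnt10b and none of the other 3 genes, against 34.0% in cKO6 and 22.1% and 23.1% in control. Lhx2 and Sox9 alone qualified 10.5% and 6.99% of control members, 0.338% in cKO5 and 3.87% in cKO6.

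Background from free RNA was read in endothelial cells, which should lack these genes (5 or more UMIs of Pecam1 and Cdh5, under 5 of Krt5 and Krt14). Over the 569 endothelial cells of the 4 E15.5 libraries, with median depths of 15900 to 21800 UMIs, Shh was found in 0, which allows a share of up to 0.527%. Lhx2 was found in 0 to 3.0% of them per library, Edar in 0 to 1.0%, Wnt10b in 0 to 0.893% and Sox9 in 0.893 to 6.30%. Members were selected partly for an Lhx2 UMI, so their own Lhx2 shares cannot be read against that range. Just outside the rule, gated cells with exactly 1 of the 5 genes made up 40.5 to 42.1% of gated cells in the E15.5 libraries, and those just inside it, with exactly 2, made up 18.0% and 20.6% in control and 29.9% and 22.0% in cKO5 and cKO6. Among the other gated cells 37.7% and 37.8% carried a Wnt10b UMI in the E15.5 controls, so a Wnt10b call alone did not separate the populations.

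The first comparison asked whether the share of gated keratinocytes that met the rule differed between MOF cKO and control. In cKO5 these cells are members by the rule alone, as given above. At E15.5 members made up 28.5% of gated keratinocytes in control 2 (664 of 2332, 95% Wilson interval 26.7 to 30.3%), 32.2% in control 3 (787 of 2441, 30.4 to 34.1%), 37.6% in cKO5 (296 of 787) and 29.3% in cKO6 (388 of 1325, 26.9 to 31.8%). The MOF cKO libraries did not lie apart from the controls, and the mean difference of 3.09 percentage points gave an exact two-sided permutation p of 0.667, where 0.333 is the smallest that 2 against 2 libraries allow. Wilson intervals and limits here cover counting error only.

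That direction depended on the definition. With at least 3 of the 5 markers, members were 10.5% and 11.6% of gated cells in control and 7.75% and 7.32% in MOF cKO (mean difference -3.509 points, exact permutation p = 0.333). With cells thinned to 5000 UMIs the shares were 11.3% and 10.96% against 6.36% and 7.46%. As a share of all kept cells, members were 7.91% and 8.63% in control and 2.91% and 3.64% in MOF cKO (difference -4.995 points, exact permutation p = 0.333). Over the same kept cells the other gated keratinocytes were fewer in MOF cKO too, at 1668 of 8396 and 1654 of 9117 in control and 491 of 10179 and 937 of 10653 in MOF cKO, so the lower share of kept cells was not particular to members. Under each of these 3 settings the control and MOF cKO libraries did not overlap in the share of members and the MOF cKO libraries were lower.

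At E16.5 members were 13.45% (32 of 238) and 16.47% (83 of 504) of gated cells in control and 6.25% (2 of 32, Wilson interval 1.73 to 20.2%) and 15.4% (4 of 26, 6.15 to 33.5%) in MOF cKO. The mean difference was -4.145 points (exact permutation p = 0.667), and at this depth of cells a difference was not detectable. No gated cell of either E16.5 MOF cKO library carried 3 of the 5 markers, which allows shares of up to 9.38% and 11.5% when 3 cells are taken as the limit of a count of 0 (Wilson upper bounds 10.7% and 12.9%), against 4.62% and 6.94% in control. With labels permuted within each stage (36 arrangements, smallest possible p 0.0556), the mean of the E15.5 and E16.5 differences was -0.5275 points (exact permutation p = 0.833). It was -4.646 points with at least 3 markers, -5.462 points after thinning and -3.904 points over all kept cells, each at p = 0.0556 in the exact permutation test, the smallest it can give.

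At E17.5 members were 41.7% (801 of 1919) of gated cells in control and 36.8% (618 of 1679) in QPC cKO, a difference of -4.93 points with no replicate check. Thinning to 5000 UMIs, with the keratin and collagen limits applied again to the thinned counts, turned this to 20.96% (315 of 1503) and 27.2% (269 of 988). With the full-depth gate kept and only the markers read after thinning, 15.57% of 1907 control cells and 16.27% of 1666 QPC cKO cells had 2 or more markers. The other gated cells of this stage held few keratin UMIs, with a median of 13 UMIs of Krt5 and Krt14 in control and 7 in QPC cKO, against 360 and 247 in members. Melanocyte markers summed to 1148 and 4565 CPM in these other gated cells and to 44.1 and 94.2 CPM in members, and the part of this in the shares was not tested beyond the settings given with the processing.

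**Figure D1:**
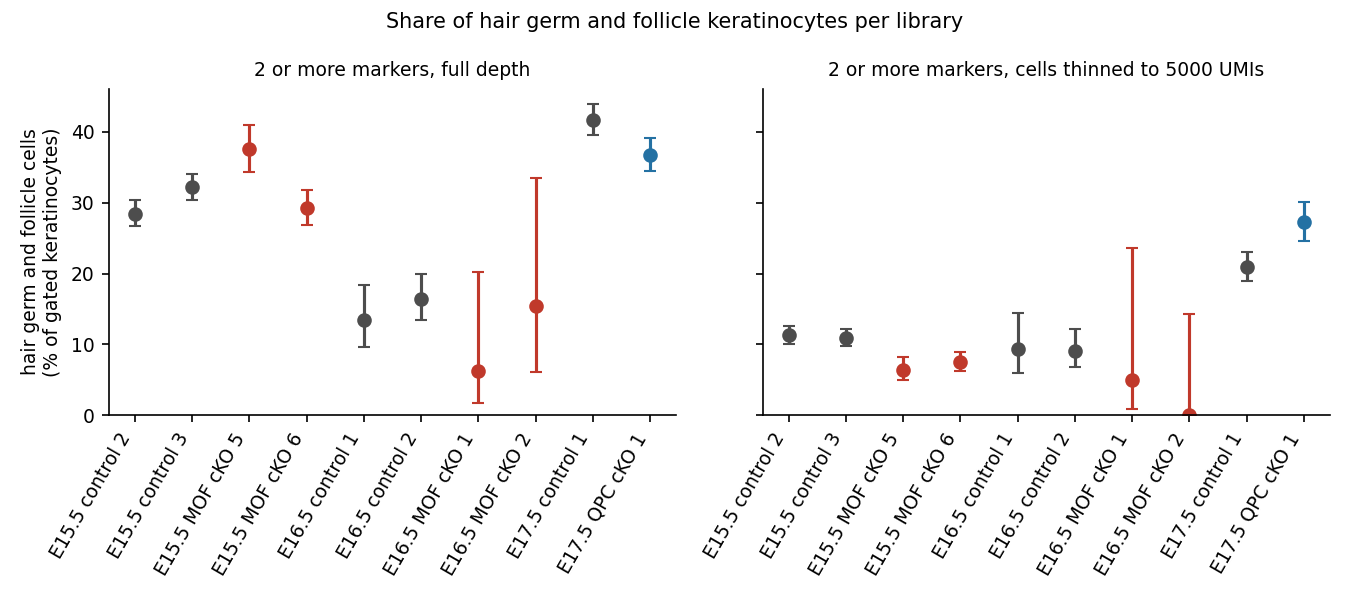
Share of gated keratinocytes (percent, vertical axis) that met the rule for hair germ and follicle keratinocytes in each of the 10 libraries. Full depth is on the left, and cells thinned to 5000 UMIs are on the right. Points are libraries and bars are 95% Wilson intervals. In cKO5 the cells are members by the rule alone. At E15.5 the MOF cKO points (37.6% and 29.3%) overlap the controls (28.5% and 32.2%) at full depth and lie below them after thinning (6.36% and 7.46% against 11.3% and 10.96%).

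Members with a Shh UMI were then set beside members with a Sox9 UMI and no Shh UMI, to describe how these 2 sets differ within a library. This was possible in 7 libraries, with 26 to 194 Shh-positive and 46 to 473 Sox9-positive cells each, and is a description, since both genes are in the rule. In cKO5, where cells are members by the rule alone, 178 of the 235 Sox9-positive cells carried Sox9 and Wnt10b alone. The genes named for this contrast were chosen after their values were seen. Dkk4 was at 210, 259, 39.3, 289, 276, 62.3 and 74.0 CPM in Shh-positive and at 13.3, 21.1, 2.75, 26.3, 2.77, 1.62 and 0.193 CPM in Sox9-positive members of E15.5 control 2, control 3, cKO5, cKO6, E16.5 control 2, E17.5 control and QPC cKO. Fgf20, a fibroblast growth factor ligand of the placode, was at 96.0, 74.6, 20.6, 81.1, 84.5, 90.4 and 124 CPM against 5.56, 6.15, 3.11, 9.67, 4.15, 1.45 and 7.05, so both genes were higher in the Shh-positive cells of every library, with a median log2 ratio of 3.89 each. Among Shh-positive members both genes were lowest in cKO5.

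Several Wnt-related genes were also higher in Shh-positive cells by their median log2 ratios, which were 3.65 for Sp5, a Wnt-induced transcription factor, 2.06 for Nkd1, a Wnt feedback inhibitor, 1.91 for Wif1, a secreted Wnt inhibitor, 1.57 for Tcf7 and 0.92 for Lef1, both Wnt effectors, and 2.23 for Bmp2, a BMP ligand. In cKO5 Bmp2 was at 84.3 CPM against 58.0, the smallest of its 7 differences. Sox9-positive members were higher for Krt79, a keratin of the infundibulum (-3.13), Gas1, a hedgehog co-receptor (-2.39), Lgr5, an R-spondin receptor (-2.19), Krt15 (-2.01), Sostdc1, a BMP and Wnt inhibitor (-1.97), and Wnt7b (-1.93), each in all 7 libraries. In cKO5 the sign rested on 1 Krt79 UMI and 2 Lgr5 UMIs over all members, so for these genes it shows no direction in that library. Of the hedgehog targets, Ptch1 was lower in Shh-positive cells in 7 of 7 (-0.19), and Gli1 was higher in 4 of 7 (0.01). Of 2919 genes with 50 CPM or more, 303 were higher and 415 lower in all 7 libraries, 43 and 42 of them by at least 2-fold.

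**Figure D2:**
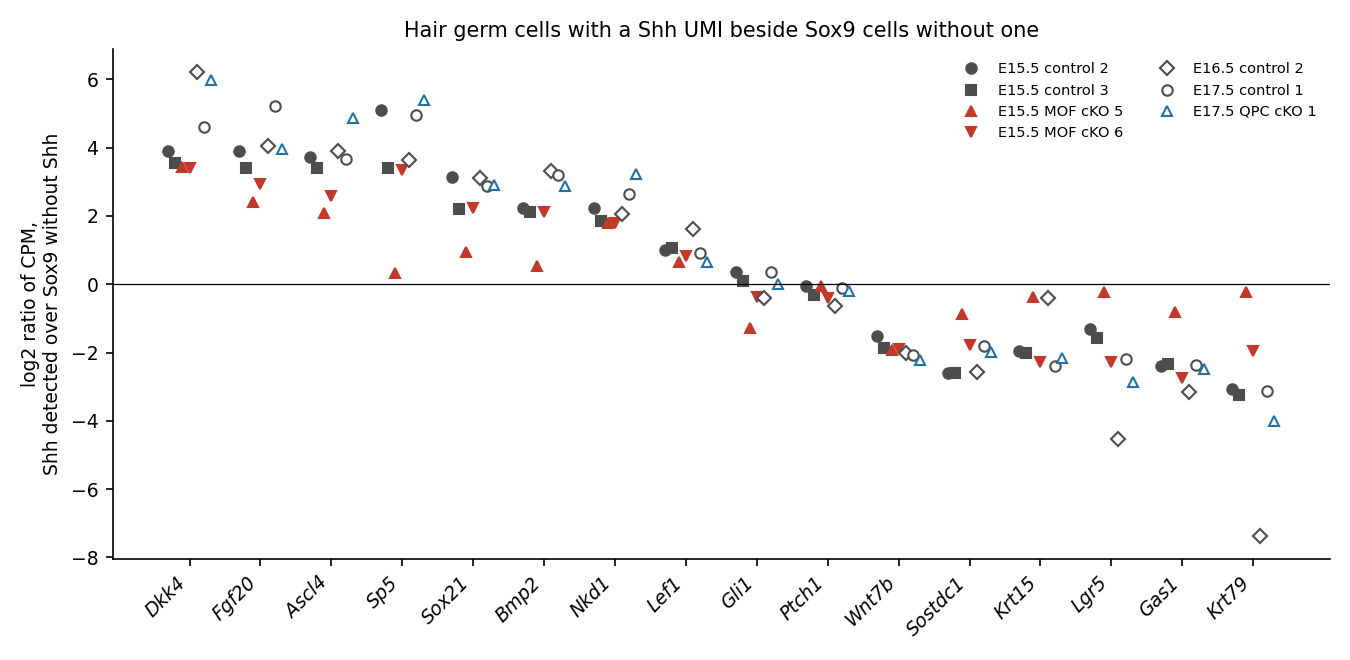
Log2 ratio of CPM in members with a Shh UMI over members with a Sox9 and no Shh UMI (vertical axis, pseudocount 1 CPM) for 16 genes (horizontal axis); each point is 1 of 7 libraries. Dkk4 and Fgf20 lie above 0 and Krt79, Lgr5 and Krt15 below it in every library. The cKO5 points of Krt79 and Lgr5 rest on 1 and 2 UMIs over all members and show no direction.

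The second comparison asked which genes differed between MOF cKO and control members at E15.5. UMIs were summed over members in each library and tested with edgeR, and values below are CPM after its TMM scaling. Of 12101 genes outside the rule, 0 (0.0%) passed an adjusted p of 0.05, while 1618 had an unadjusted p under 0.05. The groups did not overlap for 58.5% of genes (28.4% lay above and 30.1% below control), and these shares are the background for the counts that follow. With members taken at 3 or more markers, edgeR called 5 genes higher and 5 lower (0.0483% of 10345 each). DESeq2 called 86 genes higher (0.787% of 10926) and 56 lower (0.513%). Without cKO6, edgeR called 3021 higher (23.5%) and 3202 lower (24.9%), and without cKO5 it called 1153 in all, with the lone MOF cKO library assumed to vary like the controls. The 2 MOF cKO libraries thus differed from each other, and a fold change or median printed alone is over both. Members also qualified by different markers: 60.1% in cKO5 and 34.0% in cKO6 carried Sox9 and Wnt10b alone, against 22.1% and 23.1% in control. The part of this mix in the E15.5 gene values below was not tested.

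The 5 genes with the smallest p among those higher in MOF cKO were Chchd10, Itm2a, Bex1, Ccng1 and Snhg3. All failed the edgeR correction, with an adjusted p of 0.369 each, and all passed in DESeq2. Bex1, an X-linked adaptor protein best known from neurons, was at 41.0 and 41.5 CPM in control, 521 in cKO5 and 161 in cKO6 (log2 fold change 3.04 ± 0.55 SE, edgeR adjusted p = 0.369, DESeq2 adjusted p = 2.17e-08). Ccng1, a cyclin induced by p53, was at 16.7 and 16.2 CPM in control, 206 in cKO5 and 62.5 in cKO6 (3.02 ± 0.56). In both, cKO6 lay between control and cKO5, and no control value came near either MOF cKO library.

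Itm2a and Chchd10 were alike in the 2 MOF cKO libraries. Itm2a, a membrane protein, was at 28.3 and 24.5 CPM in control and 60.05 and 52.6 in MOF cKO (1.09). Chchd10, a protein of the mitochondrial intermembrane space, was at 29.4 and 27.4 CPM in control and 56.7 and 55.3 in MOF cKO (0.98 ± 0.14). Snhg3, a host gene of small nucleolar RNAs, was at 30.9 and 35.1 CPM against 82.3 and 59.0 (1.09).

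The 5 lower genes of smallest p were Trib1, Tnfaip3, Trps1, Atf3 and Irf1, again with an edgeR adjusted p of 0.369 each and a DESeq2 adjusted p under 0.05. Atf3, a stress-induced transcription factor that pairs with Jun proteins, was at 1606 and 1580 CPM in control, 428 in cKO5 and 563 in cKO6 (-1.69 ± 0.21, edgeR adjusted p = 0.369, DESeq2 adjusted p = 4.08e-11). Tnfaip3, the ubiquitin-editing inhibitor of NF-kB signalling also called A20, was at 80.3 and 78.6 CPM in control and 22.3 and 29.0 in MOF cKO (-1.62 ± 0.18). For these genes cKO6 was nearly as low as cKO5.

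Trps1, a GATA-type repressor whose loss in people thins the hair, was at 77.1 and 76.4 CPM in control and 28.3 and 34.2 in MOF cKO (-1.29). Trib1, a pseudokinase, was at 179 and 166 CPM in control and 64.6 and 72.8 in MOF cKO (-1.33 ± 0.14), and Irf1, an interferon-response transcription factor, at 124 and 141 against 45.9 and 61.1 (-1.30). Each of the 5 was lower in both MOF cKO libraries than in both controls. None of the 5 was called in the test of the interaction with the other gated keratinocytes (edgeR adjusted p from 0.402 for Tnfaip3 to 0.81 for Irf1), where Atf3 was at 1798 and 1685 raw CPM in control and 315.5 and 634 in MOF cKO.

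**Figure D3:**
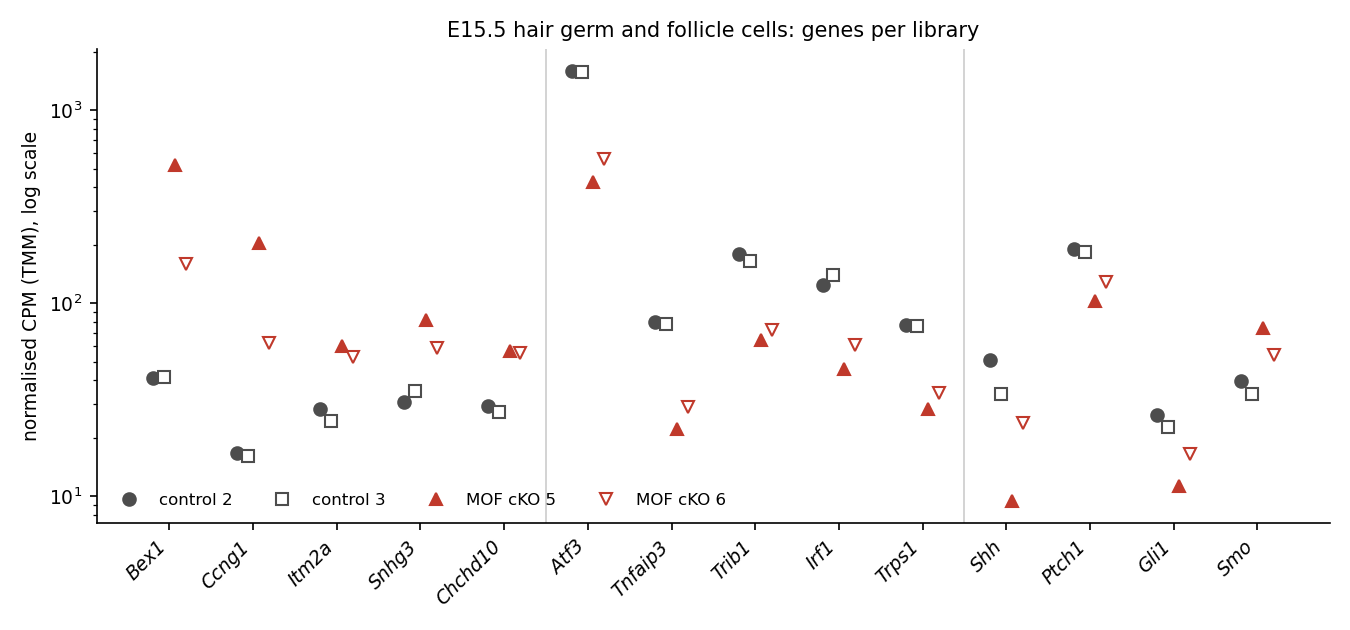
TMM-scaled CPM (vertical axis, log scale) of 14 genes (horizontal axis) in the members of each E15.5 library, with 1 point per library; from left to right stand genes higher in MOF cKO, genes lower in MOF cKO, and hedgehog pathway genes. Bex1 and Ccng1 are highest in cKO5 and intermediate in cKO6, Atf3 and Tnfaip3 are low in both, and Ptch1 is lower in both (102.5 and 129 against 192 and 184.5).

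Atf3 and Tnfaip3 are shown with the 250 bases before their transcription start, because they were among the 5 lower genes of smallest p and held a match to a searched motif. Of those 5 genes, Atf3, Tnfaip3 and Irf1 were matched in the promoter table. The sequences are from RefSeq (GRCm38.p6), given 5′ to 3′ on the minus strand at chr1:191183334-191183583 for Atf3 and chr10:19015411-19015660 for Tnfaip3, with motif matches in capitals. Both strands were searched for TGANTCA, the AP-1 site, and TNACGTCA, a cyclic AMP response element.
Atf3: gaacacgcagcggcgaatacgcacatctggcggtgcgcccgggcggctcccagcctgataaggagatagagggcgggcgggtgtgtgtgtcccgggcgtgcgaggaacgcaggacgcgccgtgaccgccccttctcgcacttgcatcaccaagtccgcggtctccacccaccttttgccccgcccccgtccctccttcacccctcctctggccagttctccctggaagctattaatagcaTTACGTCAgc
Tnfaip3: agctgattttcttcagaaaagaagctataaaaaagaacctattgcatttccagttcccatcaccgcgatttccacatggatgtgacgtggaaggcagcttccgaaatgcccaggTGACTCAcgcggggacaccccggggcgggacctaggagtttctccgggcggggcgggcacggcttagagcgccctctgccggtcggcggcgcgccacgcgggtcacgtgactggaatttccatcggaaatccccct
The Atf3 promoter held TTACGTCA starting at position -10 from the transcription start, and the Tnfaip3 promoter held TGACTCA at position -136, while the promoter of a second annotated Tnfaip3 start and those of both annotated Irf1 starts held neither. The AP-1 letters occur in 6.75% and the response element letters in 2.52% of the 32851 promoters of this length, and a match is a description of the letters.

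Of 19 AP-1 and immediate early genes tested outside the rule, 17 were lower and 1 higher in MOF cKO with no overlap between groups, with a median log2 fold change of -0.53 (all genes -0.014). DESeq2 called 5 of them lower. Fos was at 3258 and 3139 CPM in control, 1699 in cKO5 and 2412 in cKO6 (-0.64), and Jun at 2737 and 2705 against 1885 and 2101 (-0.45). Nr4a1, an immediate early nuclear receptor chosen after its values were seen, was at 171 and 178 CPM against 26.8 and 75.9 (-1.75). The list was lower with either MOF cKO library left out, at a median of -0.56 without cKO6 and -0.41 without cKO5.

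Hedgehog signalling genes were ordered by their place in the pathway. The ligand Shh was at 50.9 and 33.9 CPM in control, 9.44 in cKO5 and 24.1 in cKO6 (-1.30), and as a gene of the rule is given as a value. The receptor Ptch1, which is both receptor and target, was at 192 and 184.5 CPM in control, 102.5 in cKO5 and 129 in cKO6 (-0.70 ± 0.16, edgeR adjusted p = 0.369, DESeq2 adjusted p = 0.0854). Neither tool called it, although the groups did not overlap.

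Gli1, a transcriptional readout, was at 26.6 and 22.9 CPM in control and 11.3 and 16.52 in MOF cKO (-0.81). Gli2, an activator, was at 28.9 and 27.4 CPM against 15.1 and 21.7 (-0.60). The inhibitor Hhip was near the floor at 2.03 and 1.75 CPM against 0.378 and 0.924. Against these, Smo, the signal transducer, was at 39.6 and 34.1 CPM in control and 75.0 and 53.9 in MOF cKO (0.80), and Gli3, mostly a repressor, at 17.7 and 20.4 against 34.8 and 24.8 (0.63).

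The co-receptor Gas1 was at 208 and 219 CPM in control, 92.7 in cKO5 and 188.5 in cKO6 (-0.60), while the co-receptors Boc (0.37) and Cdon (0.28) were higher without overlap, Disp1, which releases the ligand, was lower (-0.47), and Sufu and Hhat overlapped. In all, of 12 pathway genes outside the rule 6 were lower and 4 higher in MOF cKO without overlap, and 0 passed in edgeR or DESeq2. The median was -0.29, at -0.75 without cKO6 and -0.11 without cKO5.

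In the Eda pathway, Edar was at 40.5 and 44.7 CPM in control, 25.1 in cKO5 and 36.4 in cKO6 (-0.46), and as a gene of the rule is given as a value. Its adaptor Edaradd was at 41.0 and 40.3 CPM against 41.4 and 43.1. The ligand Eda was low, at 5.003 and 4.94 CPM in control and 7.93 and 6.01 in MOF cKO. Eda2r, the receptor of the other Eda isoform and a p53 target, was at 0.0782 and 0.301 CPM in control, 17.8 in cKO5 and 3.003 in cKO6 (DESeq2 adjusted p = 2.21e-05), and was the 1 of 10 pathway genes that DESeq2 called. Of the signal relay, Map3k7 (0.57), Rela (0.48), Tab2 (0.30) and Tnfrsf19 (0.22) were higher in both MOF cKO libraries, and Nfkbia, an NF-kB target, overlapped at 618, 648, 662 and 443 CPM. Traf6, an adaptor, was at 12.4 and 11.03 CPM against 10.95 and 10.2, and Nfkb1 overlapped at 70.8, 76.3, 82.3 and 74.5. Of the 10 genes 7 were higher and 1 lower without overlap (median 0.26, at 0.36 without cKO6 and 0.13 without cKO5), and with library size alone as the scaling the median was -0.02. That scaling moved the median of all genes from -0.014 to -0.27.

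Under TMM scaling genes for Wnt ligands and secretion leaned higher, while Wnt targets and effectors lay on both sides of control. Wls, which carries Wnt ligands to the cell surface, was at 193 and 197 CPM in control and 351 and 236 in MOF cKO (0.59), and Wnt6 at 193 and 203 against 266.5 and 217 (0.29), while Wnt4 overlapped at 220, 219, 173 and 239.5 CPM. Of 11 genes for Wnt ligands and secretion, 7 were higher and 0 lower without overlap (median 0.29, at 0.33 without cKO6 and 0.24 without cKO5, or 0.01 with library size alone). Of 17 Wnt targets and effectors, 5 were higher and 8 lower. Ctnnb1 (beta-catenin) overlapped at 790, 779, 684 and 820 CPM, Lef1 was at 209 and 208 against 241 and 225 (0.16), and Ccnd1 (cyclin D1) was at 94.0 and 102 against 42.7 and 61.6 (-0.91, DESeq2 adjusted p = 0.0499). Dkk4 overlapped, with 60.3 and 72.1 CPM in control, 8.12 in cKO5 and 62.7 in cKO6.

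Follicle transcription factors and structural genes each lay on both sides of control. Of 21 transcription factors outside the rule, 11 were lower and 6 higher without overlap, edgeR called 0 and DESeq2 called 3 lower. Their median was -0.21, at -0.08 without cKO6 and -0.17 without cKO5. Of 13 follicle keratins and adhesion genes, 5 were lower and 4 higher (median -0.07). The rule's own Lhx2 was at 78.8 and 54.2 CPM in control, 8.88 in cKO5 and 34.5 in cKO6, and Sox9 overlapped at 119, 104, 129 and 82.8. Several genes were picked after their values were seen: Nfatc1, a factor of follicle stem cells, was at 21.5 and 17.2 CPM against 2.46 and 5.78 (-2.17), Barx2, a homeobox factor of follicles, at 45.02 and 41.5 against 10.2 and 19.5 (-1.52), Tgfb2 at 71.5 and 49.4 against 9.82 and 22.6 (-1.86), and Krt79 at 16.8 and 13.8 against 0.189 and 2.43 (-3.36). In each of these 4 both MOF cKO libraries were below both controls and cKO5 was the lowest. The part of the different mix of members in these 4 values was not tested. The Krt79 value of cKO5 is 1 UMI, at the floor, so its fold change is not exact. Krt15 was at 1997 and 1907 CPM against 804 and 1545 (-0.73), and Krt17 overlapped at 1191, 1066, 1091 and 649.

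The p53 target list had the highest median of the 12 lists plotted for E15.5. Of 19 genes 16 were higher and 2 lower without overlap, DESeq2 called 9 higher, and the median was 1.62 (2.23 without cKO6, 0.58 without cKO5). Cdkn1a (p21), a cell cycle inhibitor picked after its values were seen, was at 63.9 and 63.7 CPM in control, 330 in cKO5 and 75.4 in cKO6. Aen, an apoptosis nuclease picked in the same way, was at 19.3 and 21.5 CPM against 123 and 43.2 (2.02), and Bax, which permeabilises mitochondria, at 86.0 and 92.5 against 241 and 113 (0.98). The list's most abundant gene went the other way: Btg2, an antiproliferative and also immediate early gene, was at 1126 and 972 CPM against 924 and 639 (-0.42).

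Ciliary genes were lower almost throughout. Of 66 tested, 52 were lower and 1 higher without overlap, 20 had an unadjusted p under 0.05, and DESeq2 called 2, with a median of -0.81 (-1.56 without cKO6, -0.45 without cKO5). Ift43, of the intraflagellar transport machinery, was at 58.1 and 48.7 CPM in control and 15.7 and 30.3 in MOF cKO (-1.20), and Cep164, of the distal appendages, at 52.2 and 53.2 against 27.8 and 42.5 (-0.58). Ift20 overlapped at 68.6, 71.7, 92.0 and 68.2 CPM. Ift43 and Cep164 were lower in cKO5 than in cKO6.

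Of 36 complex I genes 20 were lower and 5 higher without overlap (median -0.24, DESeq2 calling 0), with a median of -0.41 without cKO6, -0.11 without cKO5 and -0.48 with library size alone. In contrast, of 39 genes of complexes II to V 20 were higher and 5 lower (0.13, at 0.16 without cKO6 and 0.10 without cKO5, or -0.12 with library size alone). Ndufb8 was at 283 and 324 CPM in control and 216 and 267 in MOF cKO (-0.33), and Atp5b, of the ATP synthase, at 747 and 743 against 1114 and 938.5 (0.46). Of 13 mitochondrially encoded genes 8 were higher without overlap (0.19), and with library size alone their median was -0.07. The study drew nuclear-encoded mitochondrial genes as a theme from its single-cell libraries, so these lists are not independent evidence of a direction. The same holds for ciliary genes and for Shh, Gli1 and Ptch1, which the study reported as reduced in its E15.5 single-cell data. It holds as well for AP-1 genes, reported as reduced in basal cells of the MOF and QPC knockouts. Glycolysis genes were higher in 9 of 16 and lower in 1 (0.45, or 0.19 with library size alone), and without cKO6 edgeR called 8 higher and 5 lower (median 0.29). Gapdh was at 1394 and 1424 against 2099 and 1822 (0.48) and Ldha at 325 and 362.5 against 431 and 503 (0.44).

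Kat8 itself was at 11.1 and 12.7 CPM in control, 20.8 in cKO5 and 10.2 in cKO6 (0.36). The deleted exons were not given in the sources used here, and a 3′ tag outside the deleted stretch checks nothing. Of 12 genes for MOF partners, 8 were higher and 0 lower without overlap (median 0.33, at 0.43 without cKO6 and 0.17 without cKO5, or 0.03 with library size alone), among them Ogt, of the NSL complex, at 81.1 and 84.5 CPM against 134 and 109 (0.55). Cytosolic ribosomal protein genes, a list added after the data were seen, were higher in 59 of 77 without overlap (median 0.57, at 0.89 without cKO6, 0.13 without cKO5 and 0.255 with library size alone), with Rpl13 at 8378 and 8525 CPM against 16980 and 9248.

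**Figure D4:**
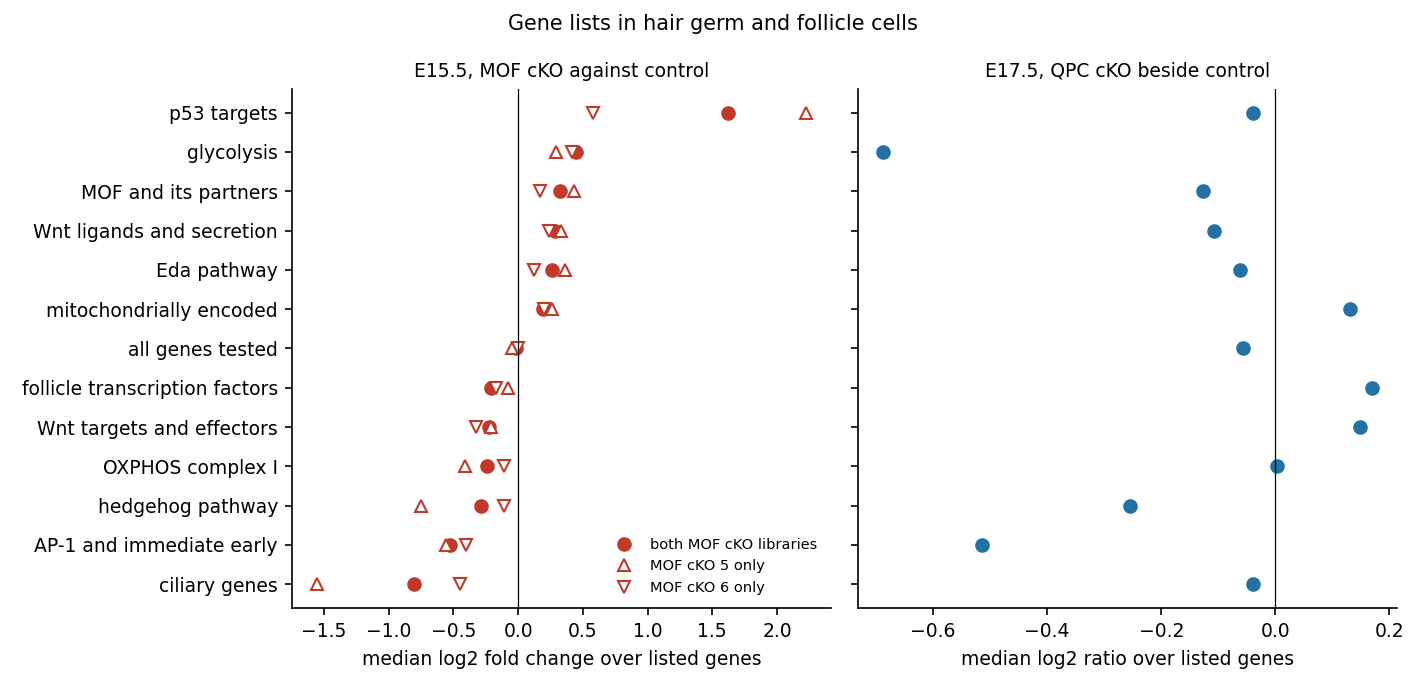
Median log2 difference of 12 gene lists and of all genes tested in members (horizontal axis), with MOF cKO against control at E15.5 on the left, for both MOF cKO libraries, cKO5 alone and cKO6 alone, and QPC cKO over control at E17.5 on the right. At E15.5 p53 targets (1.62) and ciliary genes (-0.81) lie farthest from 0, and at E17.5 glycolysis (-0.69) lies lowest.

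Since cKO6 lay between control and cKO5 for many genes, cells were scored one by one, with the index added after the data were seen. It is the log2 ratio of UMIs of 50 genes higher to UMIs of 50 genes lower in cKO5 than in control 2, each with 1 added, in cells thinned to 5000 UMIs, so those 2 libraries chose it while control 3 and cKO6 did not. Members of control 2 had a median of -1.10, control 3 of -0.81, cKO5 of 2.76 and cKO6 of 0.23. The range from the 10th to the 90th percentile ran from -1.59 to 0.066 in control 3 and from -0.88 to 2.65 in cKO6, which reached into the ranges of both control and cKO5.

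Above the midpoint between the medians of control 2 and cKO5 (0.832) lay 0.301% of members in control 2, 1.02% in control 3, 97.0% in cKO5 and 33.0% in cKO6 (128 of 388). In cKO6, 86 members (22.2%) lay within 0.5 of the midpoint, so the index is a range and the counts on either side are not cell types. Among cKO6 members that carried Sox9 and Wnt10b alone 47.0% (62 of 132) were above it, and among those with an Lhx2 or Shh UMI 25.5% (25 of 98). The lower side of the index includes Dkk4, Tgfb2, Nrp2 and Pdlim4, whose median ratios were higher in Shh-positive cells, so cells with a Shh UMI can have a lower index by its construction, and these shares are not compared. The other gated keratinocytes gave 0.603%, 1.94%, 93.8% and 24.2% in the same order of libraries.

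**Figure D5:**
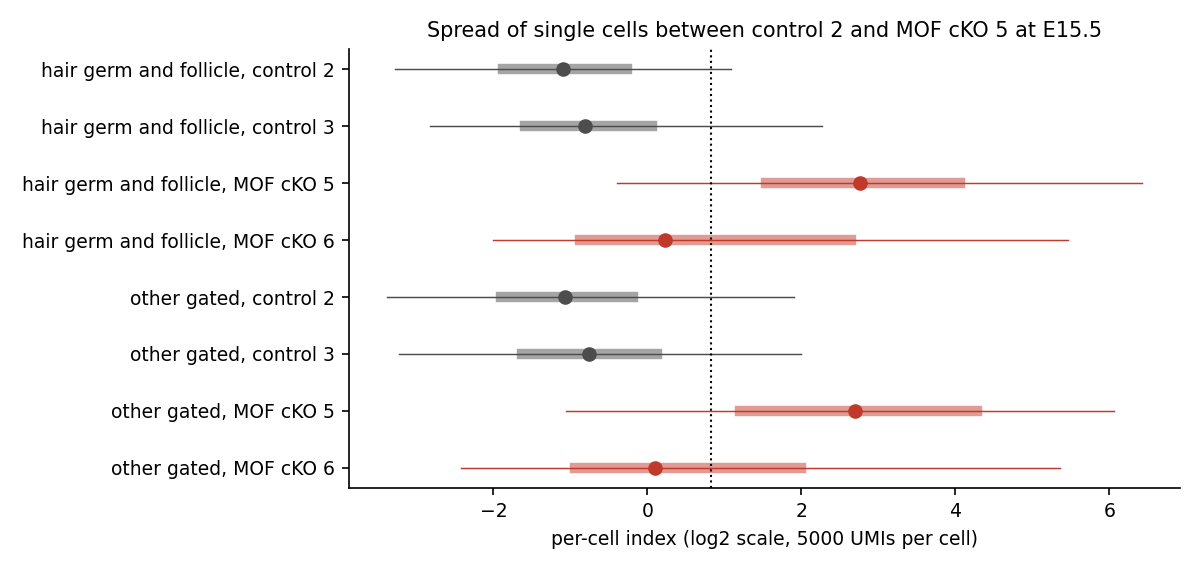
Index per cell (horizontal axis, log2 ratio of UMIs of 50 genes higher to 50 genes lower in cKO5 than in control 2) for members and other gated keratinocytes of the 4 E15.5 libraries; dots are medians, thick lines the 10th to 90th percentile, thin lines the full range, and the dotted line is the midpoint at 0.832. The cKO6 cells span from control values to cKO5 values, with 33.0% of members above the midpoint.

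Members with an Lhx2 or Shh UMI were also summed on their own, on raw CPM. There Ptch1 was at 282 and 283 CPM in control, 84.8 in cKO5 (36 cells) and 221 in cKO6, and Dkk4 at 115.5 and 161 against 31.3 and 244. Atf3 was at 1691 and 1587 CPM against 413 and 551, and Bex1 at 34.2 and 40.5 against 210 and 74.9. For Atf3 and Bex1 the MOF cKO libraries stood apart from control in this subset too, while for Dkk4 cKO6 was above both controls. These values are a description, since the rule's genes chose the subset.

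The third comparison asked whether the difference between MOF cKO and control was the same in members as in the other gated keratinocytes of the same libraries. An edgeR test of the interaction, with library as a block, called 132 of 13132 genes (1.01%) at an adjusted p under 0.05, 107 with a higher (0.815%) and 25 with a lower (0.19%) difference in members. With library size alone as the scaling the counts were 19 and 28. CPM in this paragraph and the next are from the fit of all 8 sums. Cytosolic ribosomal protein genes, the list added after the data were seen, were 53 of the 107 higher calls (53 of 77 tested, median 0.19, against -0.01 over all genes tested). The genes named below were chosen by the size of their difference or from the lists and are not typical of the calls. No gene of the hedgehog list (12) or the Eda list (10) was among those called.

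For the 6 genes named here with a lower difference in members, the ratio of members to other cells in MOF cKO was smaller than in control, or below 1. The immune marker Lyz2 was also called lower (-3.12, edgeR adjusted p = 0.0101), but 1 cell held 137 of its 246 UMIs in members of control 2 and 1 cell 135 of 149 in control 3. The immune marker list summed to 63.7, 35.1, 18.95 and 27.4 CPM in members of control 2, control 3, cKO5 and cKO6 and to 65.8, 54.6, 55.0 and 92.8 in the other cells. Ccnd1 was at 92.8 and 101 CPM in control members and 41.3 and 60.7 in MOF cKO members, and at 47.5, 55.1, 48.0 and 49.97 CPM in the other cells (log2 difference -0.82, edgeR adjusted p = 0.0141). Fn1 was at 93.4, 90.4, 98.4 and 67.9 CPM in members of control 2, control 3, cKO5 and cKO6, and at 15.53, 13.7, 48.7 and 18.4 in the others (-1.19, adjusted p = 0.0186). Thus Ccnd1 was lower in MOF cKO members. For Fn1 the other cells of cKO5 were higher than in control, while in cKO6 the members were lower than in both controls.

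Flrt3, an adhesion and FGF-signalling protein, was at 79.6, 79.1, 38.0 and 49.8 CPM in members and at 38.6, 37.2, 33.6 and 35.4 in the others (-0.69, edgeR adjusted p = 0.0169). Barx2, named after its values were seen, was at 44.5, 41.1, 9.86 and 19.2 CPM in members and at 15.3, 17.7, 14.4 and 15.3 in the others (-1.29, edgeR adjusted p = 0.0171). Both were lower in MOF cKO members than in control members and close to level in the other cells. The markers by which members qualified also differed: 60.1% in cKO5 and 34.0% in cKO6 carried Sox9 and Wnt10b alone, against 22.1% and 23.1% in control. The part of this in the interaction values was not tested. Cebpb, a transcription factor of stress and differentiation, had a difference of -0.71 (edgeR adjusted p = 0.029), and Arl4c, a small GTPase, one of -0.78 (0.0156).

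Among genes whose difference was higher in members, 5 were named by size. Igfbp2, an insulin-like growth factor binding protein, was at 87.4, 80.9, 89.1 and 103 CPM in members and 155, 141.5, 86.5 and 126 in the others (0.66, edgeR adjusted p = 0.0141). Stfa1, a cystatin, was at 72.4, 76.1, 73.0 and 73.2 CPM in members and 167, 160, 117 and 106 in the others (0.54). In both the other cells were lower in MOF cKO and the members were nearly level. Meg3, a noncoding RNA, was at 41.3, 35.6, 112 and 49.4 CPM in members and 44.9, 53.7, 78.1 and 32.6 in the others (0.93, edgeR adjusted p = 0.0141), Bex1 had a difference of 0.55 and Ckmt1, a mitochondrial creatine kinase, one of 0.52. With members taken at 3 or more markers, Igfbp2, Meg3, Stfa1, Ccnd1, Flrt3 and Fn1 stayed under 0.05 in edgeR, while Bex1 (adjusted p = 0.370), Ckmt1 (0.383), Arl4c (0.0657), Cebpb (0.0854) and Barx2 (0.104) did not.

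At E16.5 the MOF cKO values rest on 2 and 4 cells, and are given as raw CPM of the summed UMIs with exact Poisson intervals and no test. Shh and Lhx2 were listed at 0 in both MOF cKO libraries, where 3 counts equal 72.1 and 26.1 CPM, against 49.8 and 47.4 CPM (Shh) and 280 and 97.6 CPM (Lhx2) in control. These genes and Sox9 are in the rule and are given as values. All MOF cKO members qualified by Sox9 with Wnt10b or Edar, so these values partly follow from the rule. Ptch1 was at 244 and 161 CPM in control and at 24.0 (interval 0.608 to 134) and 52.1 (19.1 to 113) in MOF cKO. Bex1 was at 29.4 and 46.0 CPM in control and at 1033 (748 to 1392) and 790.5 (636 to 971) in MOF cKO. A single cell held 38 of the 43 Bex1 UMIs of the first MOF cKO library and another 62 of the 91 of the second. Sox9 was at 161 and 147 CPM against 168 and 60.8, and Krt17 at 2888 and 2084 against 2595 and 1581.

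The fixed lists were also summed. Ciliary genes summed to 1366 (1259 to 1479) and 1264 (1207 to 1324) CPM in control and to 216 (98.9 to 411) and 321 (226 to 443) in MOF cKO. Hedgehog genes summed to 791.5 and 571 CPM against 48.05 (5.82 to 174, from 2 UMIs) and 391 (285 to 523), but this sum includes Shh, a gene of the rule, with 22 and 67 of the 350 and 808 UMIs in control and 0 in both MOF cKO libraries. S phase genes summed to 2845 and 2155 CPM against 673 and 704. AP-1 and immediate early genes summed to 7551 and 6213 CPM against 2955 (2456 to 3526) and 4708 (4320 to 5122), so each of these 4 lists was lower in both MOF cKO libraries. They are a selection, and other lists lay the other way. Stress keratins and alarmins summed to 511 (447 to 582) and 697 (654 to 741) CPM in control and to 2427 (1977 to 2949) and 1303 (1103 to 1529) in MOF cKO, and genes of the hemidesmosome and basement membrane to 1732 and 1295 CPM against 2955 (2456 to 3526) and 1902 (1659 to 2172). Immune markers summed to 20.4 and 70.0 CPM in control members and 192 and 86.9 in MOF cKO members, and their part in these sums was not tested. Within the AP-1 list Fos was at 891 and 777 CPM against 120 (39.0 to 280.4) and 573 (443 to 729), and Atf3 at 115 and 171 against 96.1 (26.2 to 246) and 130 (72.9 to 215), where the intervals of control and MOF cKO overlap. These intervals count UMIs of so few cells and do not cover the spread between cells.

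Levels across stages are raw CPM of members and carry the chemistry with them. Atf3 was at 1787 and 1712 CPM in the E15.5 controls, 115 and 171 in the E16.5 controls and 289 in the E17.5 control. Shh was at 56.6 and 36.7, 49.8 and 47.4, and 76.4 CPM in the same order, and Lhx2 at 87.7 and 58.7, 280 and 97.6, and 122, so for Shh the controls of E16.5 lay within the E15.5 range. Wnt10b was at 84.6 and 81.4, 36.2 and 28.3, and 103 CPM. Ptch1 was at 214 and 200, 244 and 161, and 351 CPM, with the E17.5 control above the rest.

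At E17.5 members of the QPC cKO were set beside the control with 1 library each, so no p-value can be given. Uqcrq (chromosome 11 from 53427922 to 53430831, minus strand), the targeted gene, was at 122 CPM (exact Poisson interval 117 to 127) in control. In the QPC cKO it was at 30.9 (28.2 to 33.8), which gave a log2 ratio of -1.95. In the other gated cells the ratio was -0.19, but these held a median of only 13 (control) and 7 (QPC cKO) UMIs of Krt5 and Krt14. They also carried melanocyte and immune markers. The part of non-epithelial cells in this ratio, and in later ratios of the other gated cells, was not tested. Of 9935 genes with 100 or more UMIs in either library, 96 (0.966%) were at least 2-fold higher and 79 (0.795%) at least 2-fold lower. The intervals of 2994 genes did not overlap, and they cover counting error only. The median over all genes was -0.057, and 6030 of the 9935 were lower in QPC cKO, which is the background for the counts of lower genes that follow. Genes named from the lists at this stage were chosen after their values were seen, apart from the targeted gene, the hedgehog genes and those of the rule.

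Glycolysis genes were lower in all 16 of 16 members of the list, with a median log2 ratio of -0.69, and the other gated cells had -0.64. Slc2a1, the main glucose transporter, went from 431 to 234 CPM (-0.88), Ldha from 673 to 369 (-0.87) and the lactate exporter Slc16a3 from 27.5 to 7.73 (-1.70). Genes of the integrated stress response were higher in 14 of 15, 4 of them by at least 2-fold (median 0.34). Atf5, a transcription factor of the mitochondrial stress response, was at 39.7 and 199.8 CPM (2.30), Mthfd2, of mitochondrial folate metabolism, at 14.9 and 70.1 (2.16), Trib3 at 2.40 and 15.1 (2.24) and Asns, asparagine synthetase, at 36.8 and 101 (1.43). Within complexes II to V, Uqcrq was the 1 gene of 39 at least 2-fold lower (median -0.02), and complex I had a median of 0.003.

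Follicle transcription factors leaned higher in QPC cKO. Of 20, 5 were at least 2-fold higher in QPC cKO and 0 lower by as much, with a median of 0.17. Of 17 follicle keratins and adhesion genes, 2 were at least 2-fold higher and 3 lower (median -0.11). The mix of members differed too: Lhx2 and Sox9 alone qualified 5.49% in control and 15.4% in QPC cKO, and Edar and Wnt10b alone 13.6% and 6.47%. The part of this mix in the values was not tested. Sox11, of the SoxC group, was at 6.16 and 31.1 CPM (2.17), Trps1 at 21.3 and 77.0 (1.81), Hoxc13, of the hair shaft, at 14.2 and 41.2 (1.48), Vdr, the vitamin D receptor, at 3.81 and 10.6 (1.26) and Nfatc1 at 20.7 and 42.5. Among signals picked after their values were seen, Tgfb2 was at 32.9 and 114 CPM (1.76), Lgr5 at 4.49 and 16.45 (1.67) and Pthlh at 47.6 and 94.3 (0.97).

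Shh was at 76.4 CPM in control and 117 in QPC cKO, Lhx2 at 122 and 154, Sox9 at 141 and 185, Edar at 49.7 and 41.7 and Wnt10b at 103 and 96.9, all as genes of the rule. Of 10 hedgehog genes 7 were lower (median -0.25), a count near that background, with Ptch1 at 351 and 264 CPM (-0.41) and Gli1 at 44.0 and 44.8. Ciliary genes had a median of -0.04 and p53 targets of -0.04, Eda pathway genes of -0.06 and ribosomal protein genes of 0.18. AP-1 genes were lower in 14 of 18 (median -0.51, other gated cells -0.63), with Fos at 1173 and 610.5 CPM and Atf3 at 289 and 169 (-0.77).

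Of the 5 largest ratios in either direction, several came from single cells. Upk3bl (0.209 and 10.95 CPM), Hist1h1d, a linker histone (7.15 and 68.2), and Ccn2, a matricellular protein (9.40 and 86.3), were higher in QPC cKO by 3.31, 3.09 and 3.07 on the log2 scale. Ccer2 and Ifitm1 were higher as well (4.01 and 3.27), with 648 of the 720 Ccer2 UMIs and 90.5% of the Ifitm1 UMIs of the QPC cKO in 1 cell. The 5 lowest were chemokines of myeloid and stressed cells: Ccl4 (111 and 0.197 CPM, -6.55), Ccl3 (-5.31), Ccl12 (-4.79), Ccl2 (138 and 4.72 CPM, -4.60) and Ccl7 (-4.47). A single control cell held 86.9% of the Ccl4, 75.3% of the Ccl3, 74.8% of the Ccl12, 55.3% of the Ccl2 and 58.9% of the Ccl7 UMIs. Ccl2 was also found in 59.2% of control and 10.8% of QPC cKO members, and Ccl7 in 17.7% and 1.94%. For Ccl2 and Ccl7 the difference was therefore not confined to 1 cell. The immune marker list summed to 1565 CPM in the other gated cells of the control and to 836 in those of the QPC cKO. Background from free RNA was not read for these genes, and its part in these shares was not tested.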

How the data were processed

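Single-cell RNA libraries of total back skin were made by the study with 10x chemistry v3.1 at E15.5, v2 at E16.5 and v3 at E17.5, and aligned to mm10 with Cell Ranger (6.1.2 in the study's methods). The submitters' processing notes for E16.5 and E17.5 also list version 1.3.1. The authors deposited whole-number UMI counts per gene and barcode, with 27998 genes listed at E16.5 and 32285 elsewhere; the deposited counts carry no annotation of cell types.

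Cells were kept by the limits given above and members found by the rule. The members, gene lists and tests were chosen with earlier results of these data known. UMI counts were summed per library and population and tested with edgeR 4.0.16 (filterByExpr, TMM, quasi-likelihood) in R 4.3.3, with Benjamini-Hochberg adjustment, and with DESeq2 1.42.0 as an alternative. In simulated data built on the E15.5 comparison of 11860 genes, edgeR recovered 10.5% of 200 genes changed 2-fold (7 of its 28 calls false) and DESeq2 30.0% (24 of 84 false). For the interaction (12827 genes) edgeR recovered 63.5% (21 of 148 calls false). E17.5, E16.5 and population contrasts used CPM of raw sums with a pseudocount of 1 CPM. Shares were compared by exact two-sided permutation over libraries. Thinning to 5000 UMIs left out shallower cells, and for the shares of members and the gene tests all limits were applied again to the thinned counts. Named genes were the Kat8 and Uqcrq targets, the 5 markers, the hedgehog and Eda genes (1 further hedgehog gene is not reported here), up to 3 abundant or called members of each other list, and the 5 or 10 leading genes per comparison and direction with at least 50 CPM; exceptions are said in the text. Scrublet marked 2.86 to 3.63% of cells at E15.5, 0.123 to 0.698% at E16.5 and 0.243 and 0.343% at E17.5; below 0.5% of over 5000 cells it has not worked, and marked cells were left out only as an alternative. Promoters and RefSeq starts came from the reference tables, and Python 3.11.15 with scipy 1.17.1 was used throughout.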

Additional observations from a re-analysis of the deposited data

Results flagged for a closer look

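The difference between MOF cKO and control at E15.5 was not the same in members and in the other gated keratinocytes for 132 genes (edgeR test of the interaction with library as a block, adjusted p under 0.05), and this difference between populations is what marked the genes below. Members of cKO5 qualified mainly by Sox9 and Wnt10b alone, unlike those of control, and the part of this in the differences was not tested. For each gene, the value is the log2 difference in members minus that in the other gated cells. It was 0.93 for Meg3, 0.66 for Igfbp2, 0.55 for Bex1, 0.54 for Stfa1 and 0.52 for Ckmt1. It was -1.19 for Fn1, -0.82 for Ccnd1, -0.78 for Arl4c, -0.71 for Cebpb and -0.69 for Flrt3.

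Members of the fixed lists that passed the same test included Wnt4 (0.285), Krt15 (0.29), Postn (0.38), Barx2 (-1.29) and Aen (0.50). Krt15 was at 1973, 1885, 777 and 1522 CPM in members of control 2, control 3, cKO5 and cKO6 and at 3519, 3541, 1117 and 2355 in the other cells, so both populations were lower in MOF cKO and the other cells more so (edgeR adjusted p = 0.0169). Wnt4 was at 217, 217, 167 and 236 CPM in members and 335, 338, 201 and 311 in the other cells (edgeR adjusted p = 0.0484). Postn, a matrix protein of the dermal border, was at 193, 218, 278.5 and 295 CPM against 199, 241, 223 and 248 (edgeR adjusted p = 0.0158). Of these 5, Krt15 also passed with at least 3 markers, while Wnt4 (edgeR adjusted p = 0.086), Postn (0.0744), Barx2 (0.104) and Aen (0.442) did not.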

How the results depend on the processing

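The E15.5 share difference of 3.09 points turned to -3.509 with at least 3 markers, -4.209 after thinning and -4.995 over all kept cells, and ran from -1.075 (without cKO5) to 7.255 with single libraries left out. At E16.5 it was 0.855 with 50 or more keratin UMIs, an alternative added after the data were seen, and -8.71 to 0.42 (without MOF cKO 1) with single libraries left out; with the replicate number as a block it was -4.145 (2 pairs, so the numbers alone carry the pairing, exact permutation p = 0.5). Together the stages gave 1.516 with under 5% mitochondrial UMIs, 3.94 with 50 or more keratin UMIs and 0.00025 without cells of other lineages. At E17.5 the sign turned to 1.3 (under 5% mitochondrial), 11.5 (10 or more keratin UMIs), 6.27 (thinned, with the limits applied again), 5.99 (50 or more keratin UMIs) and 1.37 (without other lineages). The cause was not tested.

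The 0 genes called at E15.5 became 997 with no filter, 142 with DESeq2, 10 with at least 3 markers, 42 after thinning and 7 to 6223 with single libraries left out, the highest without cKO6. The 132 interaction genes became 47 with library size alone, 39 of them shared (19 higher and 28 lower, against 107 and 25), 473 with no filter, 380 under 5% mitochondrial, 18 with no upper gene limit, 53 with at least 3 markers, 30 after thinning, 62 with 50 or more keratin UMIs and 26 to 846 with single libraries left out. The 81 genes at 2-fold between populations became 525 with no filter and 42 without other lineages, where F13a1 turned to 0.062. The 175 genes at 2-fold at E17.5 became 66 with a pseudocount of 10 CPM and 365 with no filter. For single named genes, 192 of 255 interaction values stayed on their side of the threshold and 63 lost it, and at E15.5 359 of 475 stayed and 116 passed it. The alternatives listed for genes at E16.5, replicate block included, were not run, since 2 and 4 members gave no test. Depth limits the markers: thinned to 5000 UMIs, Shh was found in 3.38 to 17.47% of E15.5 members.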

Other observations

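Cell cycle genes of members are given for E15.5 and E17.5, which differ in deleted gene and chemistry and were not compared by a test. At E15.5, of 30 S phase genes 8 were higher and 1 lower in MOF cKO without overlap (median log2 fold change -0.01). The MOF cKO libraries went opposite ways there: without cKO6 edgeR called 4 higher and 11 lower (median -0.14), and without cKO5 it called 7 higher and 0 lower (0.16). Of 30 G2/M genes 13 were higher and 0 lower (0.08, or -0.19 with library size alone). Pcna, the replication clamp, was at 161 and 157 CPM in control and 195 and 199 in MOF cKO (TMM-scaled). At E17.5, 29 of 30 S phase genes were lower in QPC cKO members (median -0.37), and 27 of 30 G2/M genes were higher (0.18). The other gated cells had medians of 0.10 and 0.68. Those cells held few keratin UMIs at this stage and carried melanocyte and immune markers, and the part of this in their medians was not tested. Of 24 hemidesmosome and basement membrane genes at E15.5, 12 were higher and 5 lower without overlap (0.11, or -0.14 with library size alone), with Dst, a linker of hemidesmosomes, at 290 and 274 CPM against 426 and 311 and Col17a1 overlapping at 190, 176, 179 and 196.

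Keratins of the inner root sheath were carried by single cells in the E17.5 control, where 1 member held 98.2% of the Krt71 and 99.6% of the Krt25 UMIs. Fosl1, below the level set for named genes, was at 34.2 and 32.9 CPM in E15.5 control members and 9.82 and 10.7 in MOF cKO (log2 fold change -1.70, edgeR adjusted p = 0.369).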
